A study of Mus musculus with 3 samples.

Results

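Nsmce2, Thada and Palld are 3 long mouse genes that carried fewer ATAC-seq regions in undivided CBir1 T cells than in polyclonal CD4+ T cells. They were chosen by a measured value, the net count of regions called in only 1 of those 2 libraries, so that count describes the choice and is no finding. Merging the 3 peak lists gave 57457 regions, of which 54435 had a nearest protein-coding gene within 100 kb. The 3 genes held 67 of them, 26 at Nsmce2, 32 at Thada and 9 at Palld. Of the 67, 65 lay inside the gene and 2 lay outside it, both beyond Nsmce2.

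ATAC-seq marks open chromatin by letting a transposase insert adapters into accessible DNA. Naive CD4+ cells from the spleens of CBir1 transgenic mice, whose T cell receptor recognises a bacterial flagellin, were stained with the division dye CellTrace Violet and given to 4 WT C57BL/6J recipients. All recipients drank 2% DSS, which injures the colon lining, for 7 days, and received FTY720, which holds lymphocytes in nodes, at 1 mg/kg on days 7, 10 and 13. On day 14 the colon-draining nodes gave 3 fractions: divided CBir1 cells, with the dye diluted, undivided CBir1 cells, with the dye kept, and polyclonal cells, the recipients' own CD4+ T cells. Each pool combined cells of 2 mice, and 1 peak list per fraction was analysed, so differences between fractions rest on single libraries and no test was run. No group lacked DSS or FTY720, and no source used here states the ages of the mice.

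Nsmce2 encodes a SUMO ligase subunit of the SMC5/6 complex, a ring-shaped ATPase that guards chromosome stability during replication and repair. Thada encodes a large protein whose Drosophila counterpart binds the calcium pump of the endoplasmic reticulum and affects energy storage, and whose human gene was found through rearrangements in thyroid adenomas. Palld encodes palladin, an actin-binding scaffold of stress fibres and adhesions that is made as long and short isoforms from alternative start sites. Open regions inside long introns often mark enhancers, which can act on the host gene or on a neighbour, and nearest-gene assignment cannot tell these apart.

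The divided, undivided and polyclonal lists held 47963, 41876 and 44426 peaks. Depth was compared by the lowest background, which stood at 1.21, 0.808 and 0.865 fragments, so the divided library was the deepest. All 9 T cell markers found in the annotation, Cd3e and Cd4 among them, had a peak near a gene end in all 3 libraries. Of 8 B cell markers 3, 1 and 2 had such a peak in the same order, and Ms4a1 had none in any library. Of 6 myeloid markers 2, 3 and 3 had one, and Lyz2, Csf1r and Adgre1 had none. Of 2 CD8 T cell markers Cd8b1 had one in all 3 libraries and Cd8a in none. Of 13 regions at B cell marker genes 0 counted, by the rule given next, for undivided cells against 6 for polyclonal cells, where 6.74% of all regions counted for polyclonal cells. At myeloid markers it was 1 against 3 of 18 regions, at T cell markers 3 against 3 of 58 and at CD8 markers 0 against 0 of 8. The B cell and myeloid counts ran in the same direction as the 3 genes described here, and their part in the result was not tested.

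A region counted for a library against another when its peak there reached a −log10 q of 5 and the other library had no peak in it. Between undivided and polyclonal cells, Nsmce2 had 0 regions on the undivided side against 6 on the polyclonal side, Thada 2 against 7 and Palld 0 against 5. Over all regions 4.54% counted for undivided and 6.74% for polyclonal cells, against 2 and 18 of the 67. Since this count chose the genes, nothing is read from that contrast. A net of −5 or lower was reached by 10 of 14840 genes with a region (0.0674%). Just inside, 8 genes shared the net of −5: Thada and Palld, and also Rad51b, Hdac4, Etv6, Cd47, Fryl and Rapgef5. Just outside, 33 genes had a net of −4, among them Lpp, Lef1 and Btg1, and far inside lay Wwox with −12. Thada and Palld are therefore 2 of 8 tied genes, and the 3 genes are not the 3 lowest. With a minimum −log10 q of 10 the counts for the 3 genes together were 1 against 7, a net of −6 in place of −16, with 0 against 1 at Nsmce2, 1 against 3 at Thada and 0 against 3 at Palld.

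All regions at the 3 genes are compared by the libraries that called them in the plot of shares. Divided cells had 52 of the 67 (77.6%, Wilson 95% interval 66.3 to 85.9), undivided cells 33 (49.3%, 37.7 to 60.9) and polyclonal cells 51 (76.1%, 64.7 to 84.7). The same shares over all regions were 82.2%, 71.1% and 75.4%. The low undivided share is the side the choice fixes. Regions called in all 3 libraries made up 27 of the 67 (40.3%, against 56.9% of all regions), and regions of divided and polyclonal cells without undivided cells 13 (19.4%, against 7.07%). The choice bears on both shares as well. Of the 18 polyclonal-side regions that chose the genes, 12 were also called in divided cells, so nothing is read from these contrasts. The Wilson intervals cover counting error only, and regions of 1 gene are not independent.

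**Figure D1:**
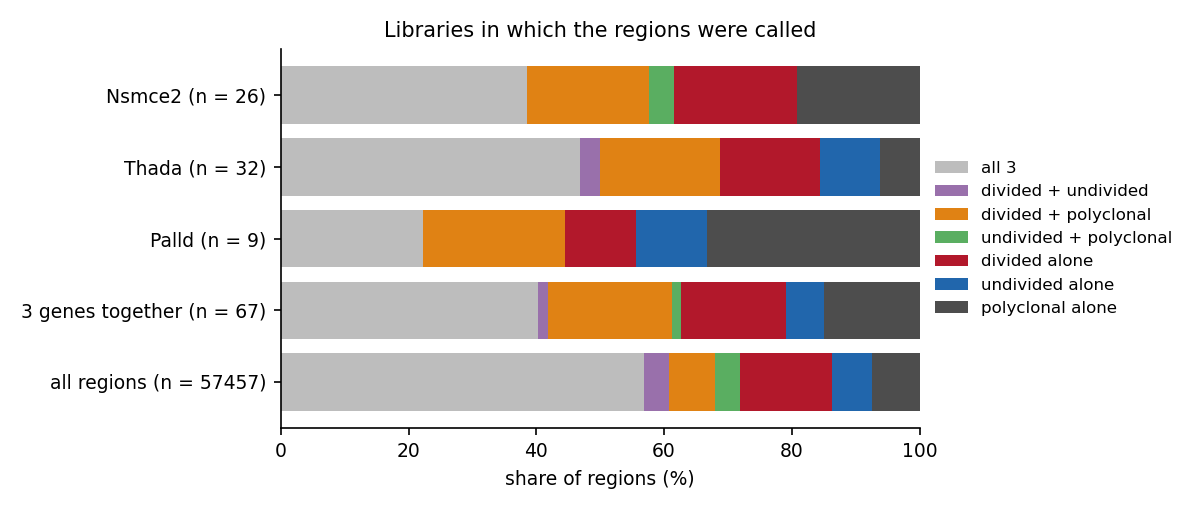
Share of regions (%, horizontal axis) by the set of libraries that called them, for each gene, the 3 genes together and all 57457 regions; colours mark the 7 possible sets. Regions called in all 3 libraries made up 40.3% at the 3 genes together and 56.9% of all regions, a contrast on which the choice of the genes bears.

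Nsmce2 spans 227 kb (chr15:59374198-59601689, mm10) and is longer than 96.2% of protein-coding genes. Its leading region covered the low-coordinate end of the gene (chr15:59373756-59374863), 4 bp from the end of the neighbour Washc5, which encodes a subunit of an actin regulator on endosomes. The summit pileup there, the number of fragments stacked at the highest point, was 87 in divided cells, 86 in undivided cells and 76 in polyclonal cells. The exact Poisson 95% intervals (69.7 to 107, 68.8 to 106 and 59.9 to 95.1) overlap, with depth not taken into account. Over background, that is as a ratio to the lowest background in each library, they were 72.0, 106 and 87.8, with undivided cells the highest. The gene end at which Nsmce2 and Washc5 meet was therefore called in all 3 fractions.

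Of the 24 regions inside Nsmce2, 11 lay in the last of 4 equal stretches of the span by coordinate, and divided cells had 9 of these, undivided cells 4 and polyclonal cells 8. A cluster lay there at 222 to 227 kb. Its leading region (chr15:59596212-59597029) had pileups of 86, 42 and 70 in divided, undivided and polyclonal cells, so the undivided level was the lowest. The next region, 546 bp away (chr15:59597575-59597887), had 46 in divided and 34 in polyclonal cells and no undivided peak. The local background at that place was high, 11.7 times the library's lowest in polyclonal cells, and an undivided peak would have needed a pileup of 21 to be called. No undivided peak thus means fewer fragments than that, not closed chromatin. In the same cluster a region at 225 kb (chr15:59598976-59599270) was highest in undivided cells, with 33, 48 and 37 in divided, undivided and polyclonal cells, or 27.3, 59.4 and 42.8 over background.

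The other polyclonal-side regions at Nsmce2 were mostly weak and spread along the gene. At 25.1 kb (chr15:59399035-59399547) the pileup was 17 in divided and 10 in polyclonal cells. At 82.2 kb and 108 kb only polyclonal cells had a peak, with pileups of 10 and 16. At 181 kb (chr15:59554602-59555272) divided cells had 20 and polyclonal cells 14. In the polyclonal library background was at its lowest at 3 of these 4 places. In undivided cells 5 to 7 fragments would have sufficed for a call at all 4. The last was the region outside the gene, 16.7 kb beyond it toward Trib1 (chr15:59618416-59618903), with 51 in divided and 26 in polyclonal cells. Its partner 717 bp further (chr15:59619620-59620564) was called in all 3, with 86, 48 and 61.

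Other Nsmce2 regions were called in undivided cells and differed in the divided library. The region at 149 kb (chr15:59522691-59523251) was absent from the divided list and had pileups of 35 in undivided and 27 in polyclonal cells. Its neighbour at 151 kb (chr15:59524543-59525383) was the strongest inside the gene in divided cells, with 96 against 56 in undivided and 48 in polyclonal cells. The divided interval (77.8 to 117) lies above the undivided interval (42.3 to 72.7), but the divided library was also the deepest. Over background the values were 79.5, 69.3 and 55.5. At 164 kb (chr15:59537992-59538862) the pileups were 37, 13 and 13, and divided cells were also the highest over background, at 30.6 against 16.1 in undivided cells.

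**Figure D2:**
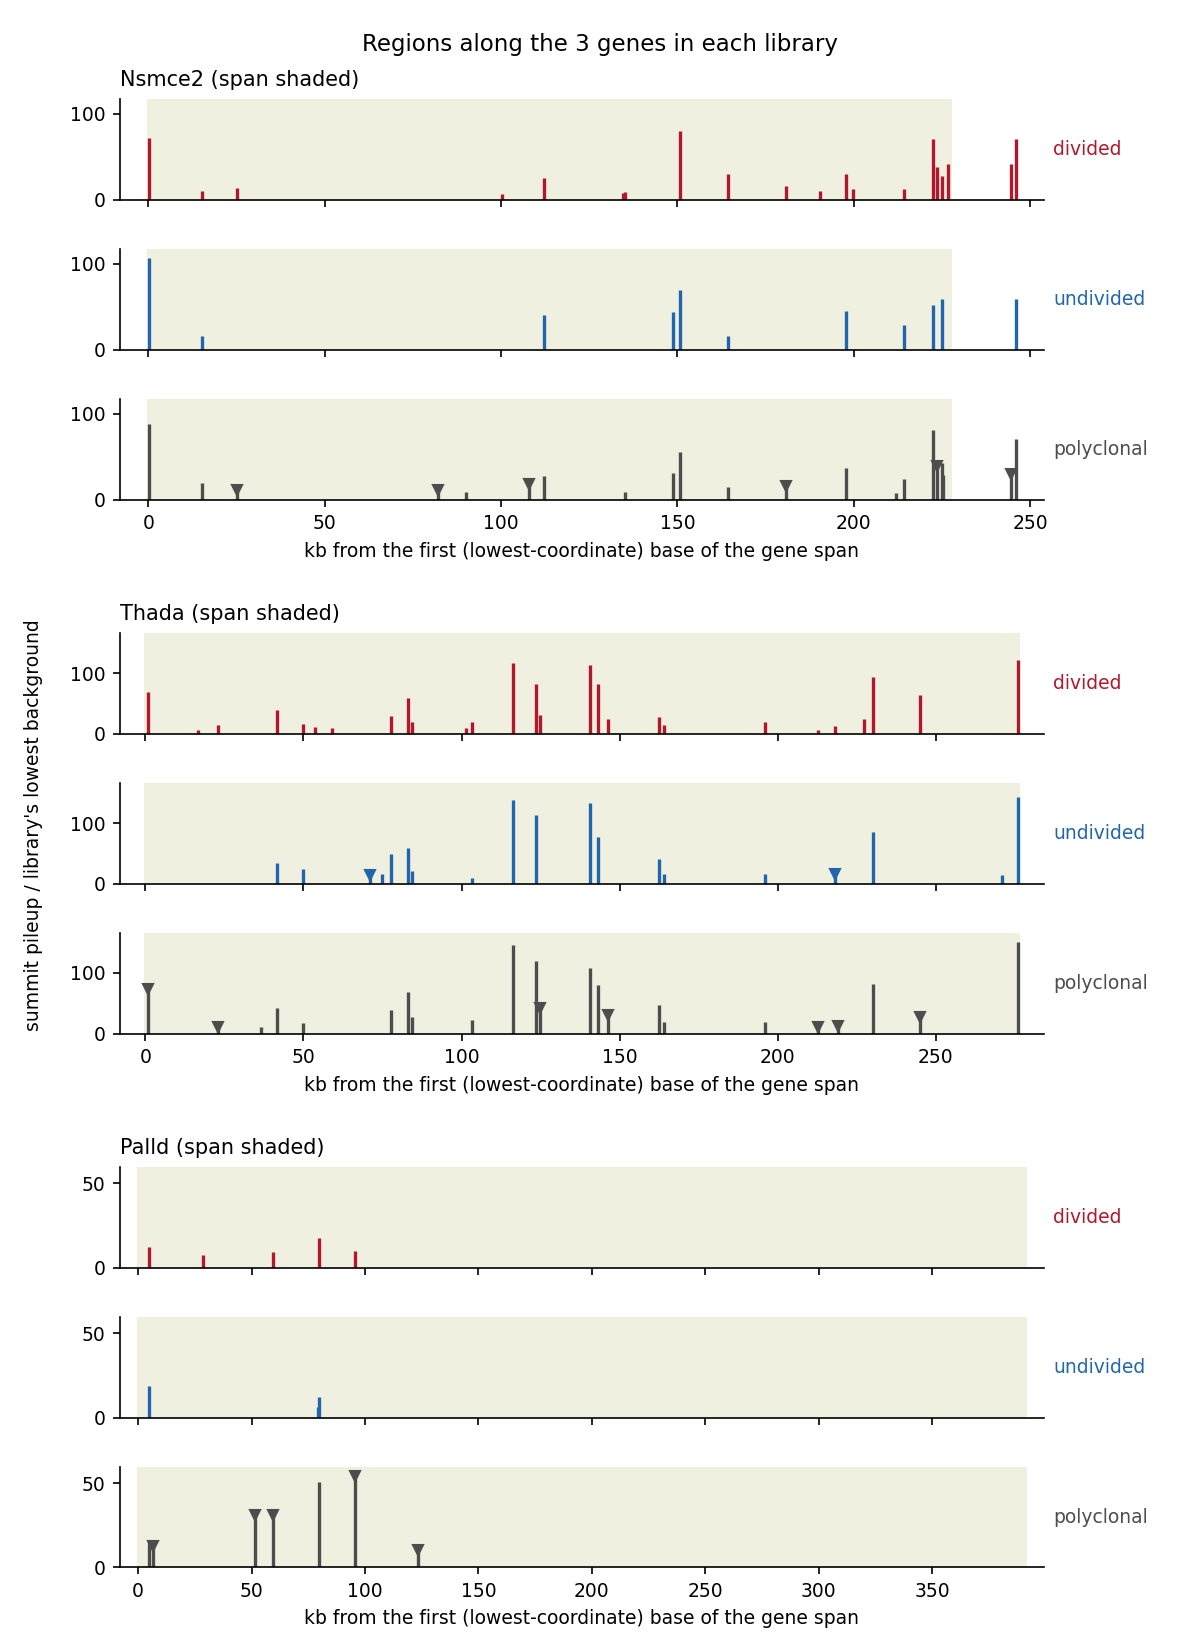
Summit pileup over the lowest background of its library (vertical axis, a ratio) against position from the lowest-coordinate base of each gene (kb, horizontal axis), for divided, undivided and polyclonal cells from top to bottom of each gene; shading is the gene span, and triangles mark regions counted for undivided or polyclonal cells against each other. Regions are spread over Nsmce2 and Thada, and all 9 at Palld lie within 123 kb of its low-coordinate end.

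Thada spans 276 kb (chr17:84190056-84466246) and is longer than 97.1% of protein-coding genes. It is transcribed from its high-coordinate end, where its promoter was the most open place of the gene in all 3 libraries. The region there (chr17:84465736-84466596) had pileups of 148, 115 and 131 in divided, undivided and polyclonal cells, or 122, 142 and 151 over background. Scaled by the pileup ratio at shared regions instead, divided cells would stand above undivided cells, so their order depends on the scale. The summits lay 17, 20 and 20 bp upstream of the RefSeq start. The promoter sequence is shown because it is the reference against which the other Thada regions can be set: it was open in every fraction. Capitals mark matches to the NFY motif (CCAAT, here on the opposite strand) and the ETS motif (GGAAG, also on the opposite strand), found by a search of both strands.
Thada promoter (RefSeq, GRCm38.p6, chr17:84466159-84466458, minus strand): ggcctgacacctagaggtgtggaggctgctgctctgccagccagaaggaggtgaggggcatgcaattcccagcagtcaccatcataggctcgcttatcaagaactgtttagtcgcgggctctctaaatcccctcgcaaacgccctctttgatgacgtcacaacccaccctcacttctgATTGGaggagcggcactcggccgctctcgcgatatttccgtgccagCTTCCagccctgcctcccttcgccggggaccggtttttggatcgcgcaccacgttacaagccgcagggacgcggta
Of all 32851 promoter windows of this length 37.4% held the NFY letters and 71.4% the ETS letters, so both are common. The ETS match began 26 bp upstream of the start, near the summits. GC content was 59.7% against a median of 52.7%, and the window held 21 CpG against a median of 7.

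Inside Thada, 15 of the 32 regions were called in all 3 libraries. The leading ones were at 116 kb (chr17:84306052-84306883), with pileups of 141, 112 and 126 in divided, undivided and polyclonal cells, and at 141 kb (chr17:84329975-84331203), with 137, 107 and 94. At 124 kb (chr17:84313266-84314216) they were 100, 91 and 103. In none of these 3 did undivided cells stand apart by counting error from polyclonal cells.

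On the polyclonal side Thada had 7 regions, of which divided cells shared 6. The strongest by pileup (chr17:84190945-84191174) lay 1.0 kb inside the low-coordinate end, with 83 in divided and 64 in polyclonal cells and no undivided peak. This is the 3′ end of the gene, near the neighbour Zfp36l2, and also inside the noncoding gene Gm36279. Background was 24.2 times the lowest in polyclonal cells there, and 36 fragments would have been needed in undivided cells. At 245 kb (chr17:84434688-84435611) divided cells had 78 (interval 61.7 to 97.3) and polyclonal cells 23 (14.6 to 34.5). That region had the highest −log10 q of the 67 among those with no undivided peak, 53.1 in divided cells, and polyclonal cells had 16.7. Undivided cells would have needed 13 fragments.

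Next to shared regions lay a further pair, 294 bp from the region at 124 kb, with 38 in divided and 36 in polyclonal cells, and 2780 bp from the nearest shared region at 146 kb, with 30 and 26. The remaining 3 were weak: 17 in divided and 10 in polyclonal cells at 22.9 kb, 8 and 10 at 213 kb, and 11 in polyclonal cells alone at 219 kb. Thada also had 2 regions on the undivided side, where Nsmce2 and Palld had 0. The region at 71.1 kb (chr17:84261048-84261297) was called in undivided cells alone with a pileup of 11, and that at 218 kb (chr17:84407982-84408411) had 13 in undivided and 15 in divided cells and none called in polyclonal cells. A further pair of regions called in undivided cells alone, at 74.9 and 271 kb, had pileups of 13 and 11 and stayed under a −log10 q of 5.

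**Figure D3:**
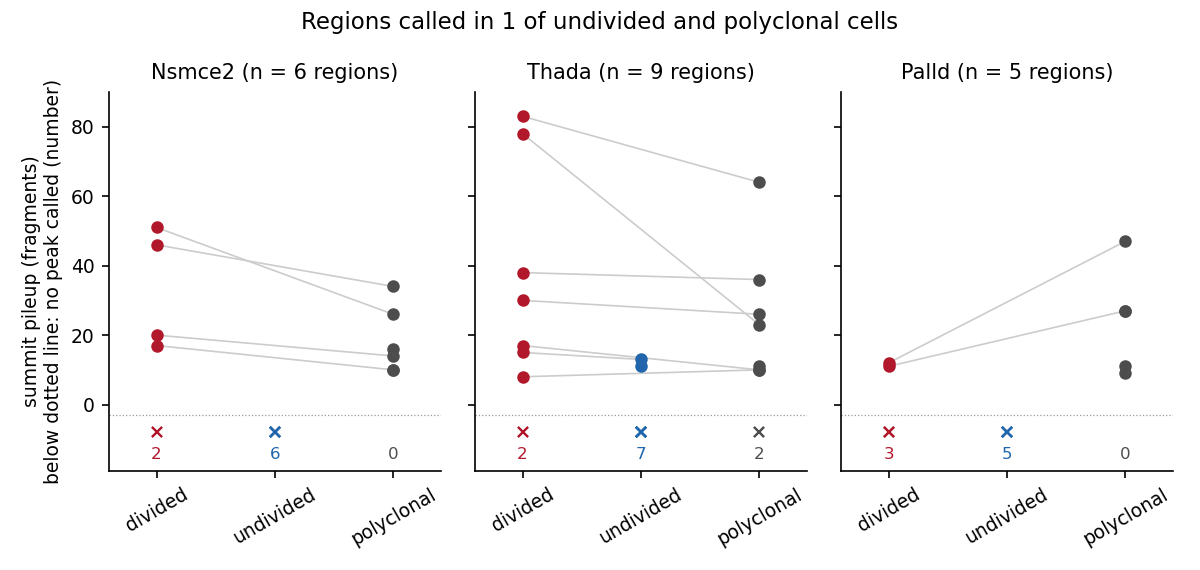
Summit pileup (fragments, vertical axis) in divided, undivided and polyclonal cells for the 20 regions counted for undivided or polyclonal cells against each other; lines join 1 region, and crosses below the dotted line, with their number, are libraries with no peak there. The values for polyclonal cells at Palld reach 47, above both divided values of 12 and 11, in regions that were used to choose the gene.

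Palld is the longest of the 3, at 391 kb (chr8:61511431-61902707), longer than 98.3% of protein-coding genes, and had the fewest regions. All 9 lay between 4.93 and 123 kb from the low-coordinate end, which is the 3′ end. RefSeq gives 3 start sites for Palld, all on the minus strand. Only the one nearest the 3′ end, from which short transcripts start, lay in a region. The 3 libraries called 0 regions over the other 2 start windows, both of which lie further from the 3′ end.

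At the open Palld start (chr8:61590739-61591387) the pileup was 21 in divided cells (13.0 to 32.1), 10 in undivided cells (4.80 to 18.4) and 44 in polyclonal cells (32.0 to 59.1). Over background these were 17.4, 12.4 and 50.8. Polyclonal cells were thus the highest, and their interval did not overlap that of undivided cells. This region was called in all 3 and did not count in the choice. It comes from the same libraries and from a gene chosen for the same direction, so it is a description only. The open start and the next one upstream are shown because only the first lay in a called region. Capitals mark matches to KLF/SP (GGGCGG), E-box (CANNTG) and AP-1 (TGANTCA) motifs in the first, and to ETS (GGAAG, on the opposite strand) in the second.
Palld open start (RefSeq, GRCm38.p6, chr8:61591090-61591389, minus strand): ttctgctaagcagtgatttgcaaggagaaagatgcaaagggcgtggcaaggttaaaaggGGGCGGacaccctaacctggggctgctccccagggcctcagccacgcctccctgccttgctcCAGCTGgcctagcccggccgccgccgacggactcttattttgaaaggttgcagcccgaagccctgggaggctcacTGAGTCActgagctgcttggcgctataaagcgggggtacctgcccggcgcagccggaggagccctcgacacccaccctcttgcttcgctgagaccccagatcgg
Palld start with no region (RefSeq, GRCm38.p6, chr8:61760040-61760339, minus strand): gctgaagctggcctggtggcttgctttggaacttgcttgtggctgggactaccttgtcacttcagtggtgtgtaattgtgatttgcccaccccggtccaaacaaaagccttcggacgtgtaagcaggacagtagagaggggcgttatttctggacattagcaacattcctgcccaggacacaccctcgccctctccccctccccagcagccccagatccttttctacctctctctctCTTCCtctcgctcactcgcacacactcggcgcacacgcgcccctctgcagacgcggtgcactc
The AP-1 letters begin 54 bp upstream of the open start, and the summits lay 50, 32 and 55 bp upstream in divided, undivided and polyclonal cells. Of all promoter windows 7.81% held the AP-1 letters, 35.7% the KLF/SP letters and 72.3% the E-box letters. RUNX letters (TGTGGT, 16.8% of windows) were in neither window shown, and GC content was 63.0% and 57.7%. The third start window, not shown and also without a region, did hold RUNX letters, as well as ETS and E-box letters. Its GC content was 44%.

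The polyclonal-side regions at Palld included those farthest above the undivided calling limit. The region at 95.5 kb (chr8:61606602-61607356) had a pileup of 12 in divided cells (6.20 to 21.0) and 47 in polyclonal cells (34.5 to 62.5), and no undivided peak, where 8 fragments would have sufficed. It lies upstream of the open start, inside the longer transcripts. At 59.3 kb (chr8:61570593-61570904) divided cells had 11 and polyclonal cells 27. At 51.5 kb (chr8:61562734-61563057) polyclonal cells alone had a peak, also with 27. Polyclonal pileups exceeded divided ones at 95.5 kb, at 59.3 kb and at the open start. The polyclonal library was shallower than the divided one. The regions at 95.5 and 59.3 kb are among those whose polyclonal peaks chose Palld, so nothing is read from this order. Only 3 of the 18 polyclonal-side regions had a polyclonal pileup at least 3 times what an undivided call needed. They are those at 51.5, 59.3 and 95.5 kb, at 5.4 to 5.88 times. The other Palld regions on that side, at 6.42 and 123 kb, had 11 and 9 fragments in polyclonal cells alone. In bulk libraries a larger share of cells with the region open and a more open region per cell cannot be told apart.

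By contrast, the region nearest the 3′ end (chr8:61516142-61516581) was alike in the 3 libraries, with pileups of 15, 15 and 14 in divided, undivided and polyclonal cells. The weakest Palld region (chr8:61590502-61590715), beside the open start, was called in undivided cells alone with 5 fragments, the lowest pileup of any undivided peak.

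Setting divided against undivided cells, which shares the undivided library with the choice, Nsmce2 had 7 regions on the divided side against 1, Thada 5 against 1 and Palld 2 against 0. Over all regions 12.4% counted for divided and 4.94% for undivided cells, against 14 and 2 of the 67. Of the 18 polyclonal-side regions that chose the genes, 12 had a divided peak and no undivided peak. The choice therefore bears on the count of 14 as well, and nothing is read from this contrast. Divided against polyclonal cells, which shares the polyclonal library with the choice, gave 2 against 3 at Nsmce2, 1 against 1 at Thada and 0 against 3 at Palld. Over all regions 9.72% counted for divided and 4.99% for polyclonal cells, against 3 and 7 of the 67. Among the 7 are 6 regions called in polyclonal cells alone that also chose the genes, so nothing is read from this contrast either. At the authors' threshold the sum over the 3 genes was 12 against 11 in place of 3 against 7, and with a minimum −log10 q of 10 it was 1 against 1, so the direction depended on the threshold.

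Of the 18 polyclonal-side regions 12 (66.7%) had a divided peak too, close to the 65.2% among all 3874 such regions. The genes differed in this count, with 4 of 6 at Nsmce2, 6 of 7 at Thada and 2 of 5 at Palld. The median polyclonal pileup of the 18 was 19.5, against 13 over all 3874. Background above 5 times the lowest was met at 5 of the 18 and at 404 of the 3874.

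Regions called in both libraries of a pair give a signal comparison, described here with no test. Between undivided and polyclonal cells the median log2 pileup ratio was 0.17 over 11 regions of Nsmce2, −0.19 over 15 of Thada and −1.02 over 2 of Palld, with a median of 0 over all 34972 such regions. At Nsmce2 7 of the 11 lay above that median, and at Thada 3 of 15. Between divided and polyclonal cells it was 0.44 over 15 regions, 0.27 over 21 and −1.18 over 4, with 0.27 over all 36741. All 4 Palld regions lay below that last median, as did 5 of 15 at Nsmce2 and 10 of 21 at Thada. The regions compared here include polyclonal-side regions that chose the genes, 4 at Nsmce2, 6 at Thada and 2 at Palld. Their polyclonal peaks had to be high enough to count, so nothing is read from the divided and polyclonal ratios. Between divided and undivided cells it was 0.0083 over 10 regions of Nsmce2, 0.40 over 16 of Thada and 0.54 over 2 of Palld, with 0.28 over all 34958. At Nsmce2 6 of these 10 lay below the median of all regions, although its count of regions leaned toward divided cells.

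Gene length was set beside these counts. Over all 21887 genes the Spearman correlation of length with the number of regions was 0.47. It was −0.05 among the 2429 genes of 100 kb or longer and −0.0049 among the 638 of 200 to 400 kb, the range that holds all 3 genes. With polyclonal-side regions it was 0.26, 0.04 and 0.09 in the same order, and genes share libraries, so these are descriptions. Of the 10 genes with a net of −5 or lower, 9 were among those 2429. Among the 638 genes of 200 to 400 kb the median was 4 regions (quartiles 1 and 10), and 1.07 regions inside the gene per 100 kb. Nsmce2 had 10.5 per 100 kb and Thada 11.6, above 97.0% and 98.4% of those genes. Palld had 2.3, above 68.0%. Of the 638 genes 7 had a net of −5 or lower. All 3 genes had more regions than most genes of like length, Palld by the least. The choice bears on these ranks, since a net of −5 needs at least 5 polyclonal-side regions, above the median of 4. Nothing is therefore read from them. At Palld 5 of the 9 regions were on the polyclonal side, which is the count that chose it.

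**Figure D4:**
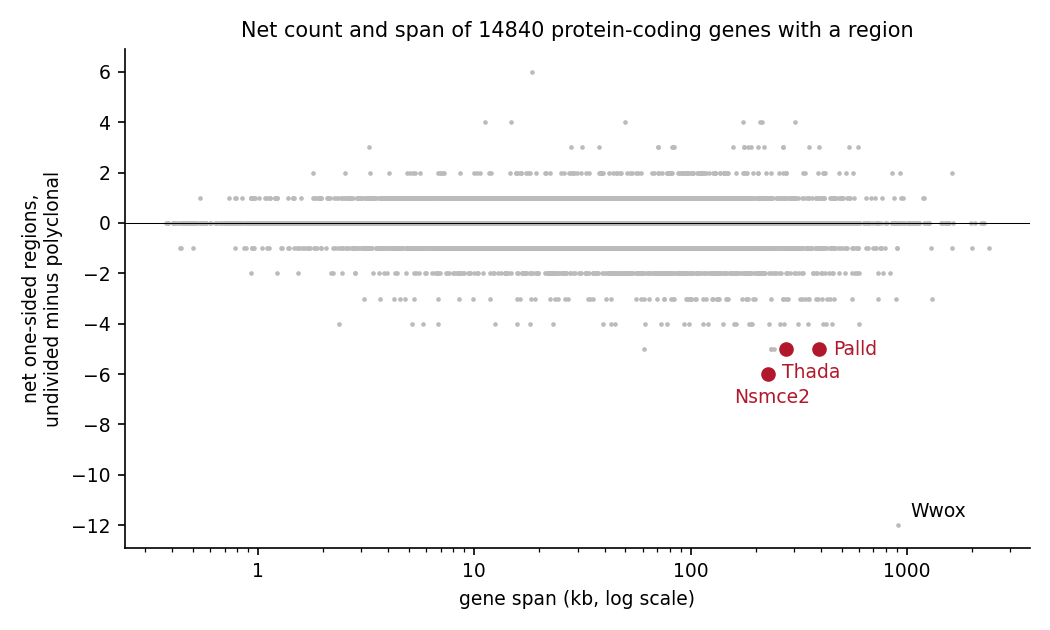
Net count of regions, undivided minus polyclonal (vertical axis), against gene span (kb, log scale) for 14840 protein-coding genes with a region; each point is a gene, and red points are Nsmce2, Thada and Palld. The 3 genes lie at −6, −5 and −5, and Wwox at −12.

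Neighbours and related genes were counted in the same way. Trib1, a pseudokinase gene 47.0 kb beyond Nsmce2, had 9 regions, called in 9, 5 and 8 cases in divided, undivided and polyclonal cells, with 0 on the undivided side against 3 on the polyclonal side. Zfp36l2, which encodes an RNA-binding protein that promotes messenger decay and lies 2.11 kb from the 3′ end of Thada, had 15 regions and the opposite order, 2 against 0. Plekhh2 on the other side of Thada had 0 against 1, and Cbr4 and Ddx60 beside Palld had 0 against 0.

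Over all 21887 genes 2283 were net toward polyclonal cells and 1487 toward undivided cells, and 7047 had no region. In the SMC5/6 complex 2 of 7 genes were net toward polyclonal cells, Nsmce2 and Nsmce1 (0 against 1), and the other 5, with Smc5 and Smc6 among them, had 0 against 0. Of these 5, Nsmce3 and Eid3 had no region assigned and could not have counted. Nsmce2 was itself chosen by this count. Among palladin, its relatives and its actin-binding partners 4 of 11 genes were net toward polyclonal cells, Palld, Lpp (0 against 4), Mypn and Ezr (each 0 against 1), and Actn1 was net toward undivided cells with 2 against 1. Palld was itself chosen by this count, and Myot had no region assigned and could not have counted. The SERCA calcium pump genes had 0 against 0. The median net was 0 in each of these lists and also over all genes.

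By the shares of regions called in divided, undivided and polyclonal cells, the genes most like the 3 together were Hdac4 (79.3%, 51.7% and 75.9%), Col15a1 (80%, 46.7% and 73.3%) and Cd47 (77.8%, 44.4% and 77.8%). The distance was 3.01, 4.49 and 5.09 percentage points among 432 other genes with at least 15 regions. Between undivided and polyclonal cells Hdac4 and Cd47 had 0 against 5, and Col15a1 had 1 against 4. Likeness by these shares is tied to the net count that chose the 3 genes, so nothing is read from it.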

How the data were processed

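Divided, undivided and polyclonal cells gave 1 library each, and every peak of the 3 lists was used. Per the submitters' processing notes, bcl2fastq 2.17, cutadapt 1.12, Trimmomatic 0.33, Bowtie2 2.3.2, Picard, SAMtools and MACS2 2.1.0 were used with mouse build mm10; how the duplicate pools entered the lists, and any shift of reads for the transposase, were not given in the sources used here. Every deposited peak list holds a score (10 times the −log10 q, without its decimals), a fold enrichment, which is a linear ratio, and −log10 values of p and q. Deposited summit lists repeat the q.

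Peaks sharing at least 1 bp were merged. Summit pileups and local backgrounds were recovered from fold and −log10 p under a Poisson model: whole numbers within 0.001 in 99.99% or more of peaks of each list, a step tested on simulated data. Read depth is otherwise unknown, and intervals cover counting error only. The pileup needed for a call scaled the highest local background of the calling libraries to the library with no peak and used its lowest deposited −log10 p. Genes and promoters came from RefSeq (GRCm38.p6, the assembly of mm10; 21887 genes); promoter windows run from 250 bp before to 50 bp after a start and matched 2 of the 3 genes. Near a gene end means within 1 kb. Genes named were the 3, those next to them in net count, the 3 most alike, neighbours and fixed lists; the genes and lists were chosen with earlier results of these data known. Python 3.11.15, numpy 2.4.6, pandas 2.3.3 and scipy 1.17.1 were used. No comparison had replicates, so no test was run; 8 alternatives were tried. The result of a further gene list is not reported here.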

Additional observations from a re-analysis of the deposited data

How the results depend on the processing

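Counts were recomputed under 8 alternatives, all planned: the authors' threshold, a minimum −log10 q of 10, assignment within 20 kb, regions overlapping the gene only, a stricter overlap between peaks, depth limited by lowest background or by shared regions, and no regions near gene ends. Summed over the 3 genes, the net of undivided minus polyclonal was −16 and moved by more than 1.5 times only under that minimum, to −6. The net of divided minus undivided was 12 and moved by more than 1.5 times only at the authors' threshold, to 19. The net of divided minus polyclonal was −4 and turned to 1 at the authors' threshold and to 0 with the minimum of 10. At that minimum the Nsmce2 net of divided minus polyclonal turned to 1. Of the 72 values for single genes, 62 stayed within 1.5 times. The cause was not tested. No paired analysis was possible because each fraction is 1 library with no replicate number. With 1 library each, pileups of about 10 fragments rest on few reads, and a missing peak limits the signal only to the pileup a call needs.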

Other observations

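Divided cells alone called 11 of the 67 regions (16.4%), close to the 14.3% over all regions, with 5 at Nsmce2, 5 at Thada and 1 at Palld. Most were weak, with pileups of 9, 10, 13 and 16 at Nsmce2, 7, 11, 12, 13 and 30 at Thada, and 9 at Palld. The exception was a region at the high-coordinate end of Nsmce2 (chr15:59600646-59600921). The divided peak there had 50 fragments and reached 13.8 in −log10 q, and undivided cells would have needed 19 fragments for a call. The Nsmce2 region with 10 fragments (chr15:59508672-59508895) lay directly beside one called in divided and polyclonal cells (chr15:59508897-59509510). The divided library was also the deepest.

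The polyclonal peaks at 51.5 and 59.3 kb of Palld carried the same pileup of 27, the same −log10 q of 26.9 and a local background of 1.02 fragments, with widths of 324 and 312 bp for the regions.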
